A study of Mus musculus with 8 samples.

Results

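The matrix metalloproteinases and their tissue inhibitors were followed in cardiac ventricles as the 10 genes Mmp2, Mmp3, Mmp9, Mmp14, Mmp15, Mmp23, Timp1, Timp2, Timp3 and Timp4, found by symbol among the 43346 genes of the deposited count table. All 10 were present, and all 10 passed the filter on low counts, as did 16111 genes in all. The mice were C57BL/6 males injected under the skin of the left flank at 7 weeks of age and sampled 14 days later. The tumor-bearing group (LLC1 1-2, 1-3, 1-5 and 2-2) received LLC1 cells, a Lewis lung carcinoma line that grows in this strain, and the control group (PBS 1-1, 1-3, 2-1 and 2-5) received the PBS vehicle without cells. No engineered allele and no drug is named for either group, and the ventricles were taken whole, with all their cell types. The question the comparison addresses is which cardiac transcripts differ when a tumor grows elsewhere in the body of a male mouse.

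Matrix metalloproteinases are zinc enzymes that cut collagens, proteoglycans and other proteins outside the cell. Most are made as inactive precursors, which are switched on when the propeptide is removed by plasmin, by furin-type convertases or by another metalloproteinase. TIMPs bind the active site and block it, so net proteolysis in the heart depends on enzyme, activator and inhibitor together. Messenger RNA reports on the supply of each protein and not on enzyme activity.

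Counts on genes came to 15342214 to 19747596 per tumor-bearing mouse and to 12480706 to 16192158 per PBS-injected mouse. The cardiomyocyte markers Myh6, Tnnt2, Tnni3, Actc1, Myl2 and Ryr2 summed to 87360 to 93850 counts per 1000000 counts (CPM) in tumor-bearing mice and to 78430 to 80630 CPM in PBS-injected mice. Of these 6, Myh6 alone passed edgeR's test, higher in tumor-bearing mice (false discovery rate, FDR, 0.0209), and Actc1 (log2 fold change -0.05) and Ryr2 (-0.17) had negative values. The 6 atrial markers summed to 115 to 341.5 CPM and 126.1 to 253.1 CPM in the same order, nearly all of it Nppa, with Bmp10 at 0 in every mouse and Dkk3 lower (FDR = 0.0377 from edgeR). PBS 1-1 stood apart from the other PBS-injected mice on the second principal component (25.2% of the variance, score 35.3 against -23.3 to -10.8). Over all genes tested, edgeR's quasi-likelihood test gave an FDR under 0.05 for 8.73% of genes, 4.61% lower and 4.12% higher in tumor-bearing mice. By total counts alone, 22.1% of the called genes were higher, and with gene length offsets 61.2%, compared with 47.2% here.

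Of the 10 genes, Mmp2 and Mmp14 fell in tumor-bearing mice and none rose. That is 2 of 10 called, beside the 8.73% of all genes tested. The groups did not overlap in TMM-scaled CPM for these same 2 genes, where 17.2% of all genes tested did not overlap. For Mmp14 the gap was narrow, at most 12.0 CPM in tumor-bearing and at least 12.4 CPM in PBS-injected mice. By total counts alone, without the TMM factors, the Mmp14 groups overlapped, with PBS 1-1 below LLC1 2-2. The median log2 fold change of the 10 was -0.08, and that of all genes tested was -0.01. Timp4, the TIMP that is most restricted to heart, had the largest positive difference of the 10 but did not pass the test.

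**Figure D1:**
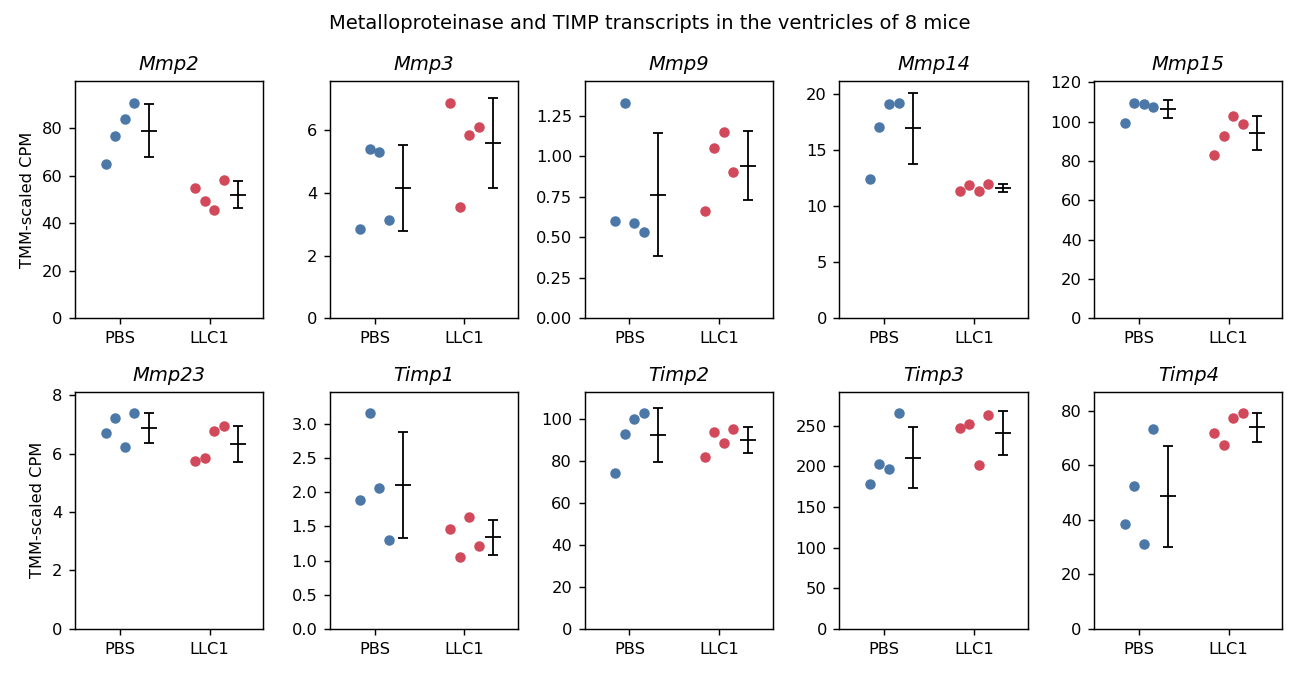
Each point is 1 mouse and each panel 1 gene, with TMM-scaled CPM on a linear axis from 0 and the mean and SD of 4 mice beside the points. The LLC1 points lie below every PBS point for Mmp2 (at most 58.2 against at least 65.0 CPM) and Mmp14 (at most 12.0 against at least 12.4 CPM), and the groups overlap in the other 8 panels.

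The sequences just upstream of 8 of the 10 genes, credited to RefSeq on GRCm38.p6 (the assembly that mm10 names), were searched on both strands for 4 short motifs. No such sequence was at hand for Mmp2 and Mmp9, so these were not searched. The promoters shown are those of Mmp14, which fell, of Mmp3, which alone of the 8 holds an AP-1 match, and of Timp4, which had the largest positive difference. Each runs 5′ to 3′ over the 250 bases before the annotated start, Mmp14 at chr14:54431348-54431597 on the plus strand, Mmp3 at chr9:7445572-7445821 on the plus strand and Timp4 at chr6:115252206-115252455 on the minus strand. Capitals mark an EGR1 match (GCGGGGGCG or GCGTGGGCG) or an AP-1 match (TGAGTCA).
Mmp14: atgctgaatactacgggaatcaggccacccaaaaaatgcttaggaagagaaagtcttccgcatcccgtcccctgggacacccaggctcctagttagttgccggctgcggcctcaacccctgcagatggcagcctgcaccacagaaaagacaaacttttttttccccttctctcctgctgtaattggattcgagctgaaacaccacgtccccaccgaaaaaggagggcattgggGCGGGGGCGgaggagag
Mmp3: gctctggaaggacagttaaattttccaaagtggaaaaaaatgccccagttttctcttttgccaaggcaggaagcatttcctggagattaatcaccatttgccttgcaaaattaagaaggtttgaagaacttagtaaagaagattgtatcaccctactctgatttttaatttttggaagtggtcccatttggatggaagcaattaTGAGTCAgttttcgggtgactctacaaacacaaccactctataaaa
Timp4: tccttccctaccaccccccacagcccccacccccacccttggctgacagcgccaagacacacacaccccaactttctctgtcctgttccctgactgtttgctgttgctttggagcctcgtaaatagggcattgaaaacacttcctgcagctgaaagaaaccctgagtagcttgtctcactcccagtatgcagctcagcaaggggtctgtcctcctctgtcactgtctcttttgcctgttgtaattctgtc
The EGR1 match of Mmp14 lay at -17 to -9 from the start and overlapped a pair of GC boxes (GGGCGG), and the AP-1 match of Mmp3 lay at -46 to -40. Among all 32851 promoter windows of that length, 3.06% held an EGR1 match and 4.46% an AP-1 match. Of the 8 members searched, Mmp14 alone held an EGR1 match and Mmp3 alone an AP-1 match, 1 of 8 each. A GC box (32.7% of all windows) was found for 5 of the 8, and the ETS core AGGAAG (29.5% of all windows) for 5 of the 8. The Timp4 window held an ETS core at -111 to -106 and none of the other 3 motifs. A match describes letters in the window and does not show that a factor binds there.

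Mmp2 (ENSMUSG00000031740, mm10 chromosome 8, 92827328 to 92853417) encodes gelatinase A, an enzyme made by fibroblasts and other stromal cells that cuts denatured collagen and basement membrane collagen. Its level was 54.9, 49.3, 45.5 and 58.2 CPM in LLC1 1-2, 1-3, 1-5 and 2-2, and 65.0, 76.6, 83.9 and 90.9 CPM in PBS 1-1, 1-3, 2-1 and 2-5. Every tumor-bearing mouse was thus below every PBS-injected mouse, and PBS 1-1 was the PBS-injected mouse nearest to them. The means were 52.0 ± 5.68 CPM (SD, n = 4) and 79.1 ± 11.04 CPM (SD, n = 4), with a log2 fold change of -0.61 (standard error, SE, 0.11; edgeR FDR = 0.00686), or 0.656 times the PBS level. The exact permutation test of log2 CPM gave its smallest possible two-sided p, 0.0286, over the 70 arrangements of the mice. Without PBS 1-1 the log2 fold change was -0.69 (FDR = 0.000578 from edgeR), and the FDR stayed under 0.05 without each of the 8 mice in turn.

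Mmp14 (ENSMUSG00000000957, chromosome 14, 54431604 to 54441258) encodes MT1-MMP, a membrane-anchored collagenase that also activates the Mmp2 precursor on the cell surface with the help of Timp2. The tumor-bearing mice had 11.3, 11.9, 11.3 and 12.0 CPM, and the PBS-injected mice 12.4, 17.0, 19.1 and 19.2 CPM, in the same order of mice. The tumor-bearing mice lay within 1 CPM of each other, and PBS 1-1 lay closer to them than to the other PBS-injected mice. The means were 11.6 ± 0.347 CPM (SD, n = 4) and 17.0 ± 3.18 CPM (SD, n = 4), with a log2 fold change of -0.55 (SE 0.12, edgeR FDR = 0.0196). The call was less stable than that of Mmp2. It was lost without LLC1 1-2 (FDR = 0.0554), LLC1 1-3 (FDR = 0.0550), LLC1 1-5 (FDR = 0.0575), PBS 1-3 (FDR = 0.0593) or PBS 2-1 (FDR = 0.0546), all from edgeR, at log2 fold changes of -0.56 to -0.50. Without PBS 1-1 the log2 fold change was -0.67 (FDR = 0.00057 from edgeR).

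Some but not all markers of fibroblasts fell as both genes did. Lum, Ddr2 and Col1a1 fell, 3 of the 6 fibroblast markers (4.61% of all genes tested fell), whereas Pdgfra (log2 fold change -0.07, FDR = 0.654), Tcf21 (-0.21, FDR = 0.331) and Dpt (-0.21, FDR = 0.0589) did not pass the edgeR test. The 6 markers summed to 290.5 to 325.7 CPM in tumor-bearing mice and to 350.7 to 450.8 CPM in PBS-injected mice. The 6 endothelial markers summed to 707.1 to 831.7 CPM and 804.9 to 1085 CPM in the same order, with 2 lower (Kdr and Cldn5), and the 5 macrophage markers found in the table to 150.4 to 189.7 CPM and 156.8 to 231.3 CPM, with 1 lower (Mrc1). The 6 smooth muscle and pericyte markers summed to 744.8 to 814.7 CPM in tumor-bearing mice and to 859.7 to 999.7 CPM in PBS-injected mice, without overlap of the sums, and none of them passed alone. Most of these sums was Rgs5 (means of 576 and 664 CPM), whose own groups overlapped. The log2 fold changes of the 6 ran from -0.54 (Acta2) to -0.003 (Tagln), with Myh11 at -0.03. The part of these shifts in the lower Mmp2 and Mmp14 was not tested. In bulk tissue, fewer cells of a type and less RNA per cell cannot be told apart.

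Over the 8 mice, the genes whose log2 CPM followed Mmp2 most closely were Gbp9 (Pearson r = 0.983), Pik3cg (r = 0.982) and Sept5 (r = 0.978). For Mmp14 they were Col5a2 (r = 0.987), a fibrillar collagen chain, Slc9a9 (r = 0.982) and Slc11a1 (r = 0.981). These are descriptions over libraries that fall into 2 treatment groups, and each was picked as the highest of all genes tested.

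**Figure D2:**
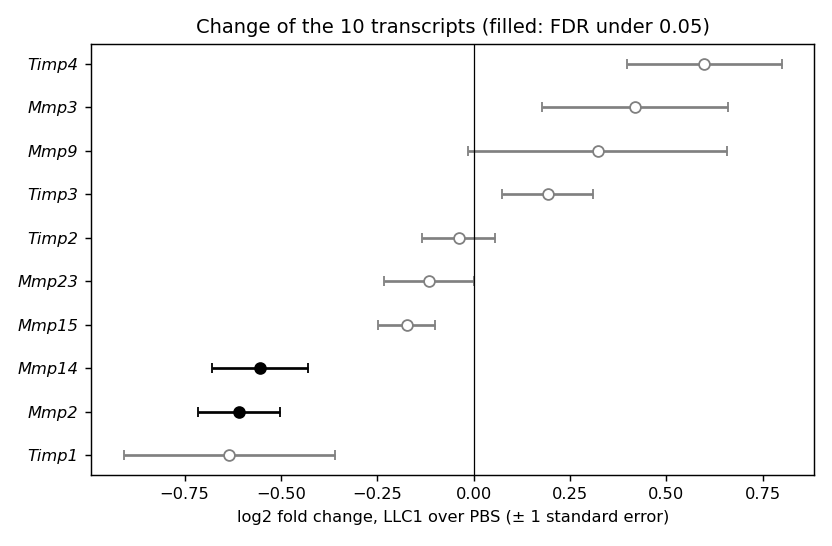
Log2 fold changes of LLC1 over PBS from edgeR with 1 standard error to each side, ordered by size, for all 10 genes. The filled points, Mmp14 at -0.55 and Mmp2 at -0.61, passed an FDR of 0.05, and the open point of Timp1 lies as far from 0 with a standard error of 0.27.

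The other membrane-bound enzymes gave smaller differences. Mmp15 (ENSMUSG00000031790, chromosome 8, 95352268 to 95374293) encodes MT2-MMP and had 83.0, 93.0, 103 and 98.6 CPM in LLC1 1-2, 1-3, 1-5 and 2-2, compared with 99.5, 109.7, 109 and 108 CPM in PBS 1-1, 1-3, 2-1 and 2-5. Only LLC1 1-5 reached into the PBS range. The means were 94.3 ± 8.61 CPM (SD, n = 4) and 106 ± 4.69 CPM (SD, n = 4), with a log2 fold change of -0.17 (SE 0.07) and an FDR of 0.162 from edgeR (exact permutation p = 0.0571). Mmp23 (ENSMUSG00000029061, chromosome 4, 155650655 to 155653384), a small membrane-tethered member released by furin-type cleavage, had 5.76 to 6.94 CPM in tumor-bearing mice and 6.24 to 7.38 CPM in PBS-injected mice. The ranges overlapped over most of their length, and the log2 fold change was -0.11 (SE 0.12, edgeR FDR = 0.576).

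Mmp3 and Mmp9 rested on few counts. Mmp3 (ENSMUSG00000043613, chromosome 9, 7445822 to 7455972), stromelysin 1, which can activate the Mmp9 precursor, had 6.88, 3.56, 5.85 and 6.09 CPM in LLC1 1-2, 1-3, 1-5 and 2-2 and 2.83, 5.40, 5.30 and 3.13 CPM in PBS 1-1, 1-3, 2-1 and 2-5. LLC1 1-2, 1-5 and 2-2 lay above every PBS-injected mouse, and LLC1 1-3 lay among them. The log2 fold change was 0.42 (SE 0.24, edgeR FDR = 0.303). Mmp9 (ENSMUSG00000017737, chromosome 2, 164940780 to 164955850), gelatinase B, is stored in neutrophil granules, and it rested on 10, 16, 21 and 18 counts in the tumor-bearing mice and on 7, 19, 10 and 9 counts in the PBS-injected mice. PBS 1-3 alone was high in its group, at 1.33 CPM where the other 3 had 0.531 to 0.601 CPM. The log2 fold change was 0.32 (SE 0.34, edgeR FDR = 0.587), and without PBS 1-3 it was 0.72 (FDR = 0.216 from edgeR).

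The neutrophil markers S100a8 and S100a9 rose, 2 of the 3 markers tested, where 4.12% of all genes tested rose. Csf3r, the other marker tested, had a log2 fold change of 0.48 (FDR = 0.389 from edgeR). S100a9 had 0.926 to 1.45 CPM in tumor-bearing mice and 0.235 to 0.601 CPM in PBS-injected mice. The defining marker Ly6g was at or near 0, with at most 1 count in any mouse. The 6 neutrophil markers together summed to 3.47 to 6.58 CPM in tumor-bearing mice and to 1.24 to 3.17 CPM in PBS-injected mice, and the part of this in the Mmp9 values was not tested.

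Among the inhibitors, Timp4 (ENSMUSG00000030317, chromosome 6, 115245616 to 115251849) came closest to the threshold. It had 71.6, 67.4, 77.4 and 79.0 CPM in LLC1 1-2, 1-3, 1-5 and 2-2, and 38.4, 52.3, 31.0 and 73.1 CPM in PBS 1-1, 1-3, 2-1 and 2-5. The tumor-bearing mice lay close together, while the PBS-injected mice spread widely and PBS 2-5 alone lay inside the tumor-bearing range. The means were 73.9 ± 5.34 CPM (SD, n = 4) and 48.7 ± 18.5 CPM (SD, n = 4), with a log2 fold change of 0.60 (SE 0.20). The FDR was 0.0847 from edgeR and the exact permutation p was 0.0857, so the difference did not pass. It passed with all mice when low counts were not filtered (FDR = 0.0182 from edgeR). Without PBS 2-5 the log2 fold change was 0.86 (FDR = 0.00597 from edgeR), and without each other mouse in turn the FDR lay between 0.116 and 0.180.

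Timp1 (ENSMUSG00000001131, chromosome X, 20870166 to 20874735), a soluble inhibitor that is often induced in inflamed tissue, rested on few counts. It had 22, 16, 30 and 24 counts in the tumor-bearing mice and 22, 45, 35 and 22 counts in the PBS-injected mice, or 1.46, 1.05, 1.64 and 1.21 CPM and 1.89, 3.15, 2.06 and 1.30 CPM. PBS 2-5 lay within the tumor-bearing range and the other PBS-injected mice above it. The log2 fold change was -0.63 (SE 0.27, edgeR FDR = 0.171), and -0.38 without PBS 1-3 (FDR = 0.424 from edgeR). The difference was near that of Mmp2 in size and its SE was larger.

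Timp2 (ENSMUSG00000017466, chromosome 11, 118301069 to 118355740), which blocks Mmp2 and also helps Mmp14 to activate it, had 82.0, 94.0, 88.6 and 95.4 CPM in LLC1 1-2, 1-3, 1-5 and 2-2, and 74.3, 92.6, 99.8 and 102.7 CPM in PBS 1-1, 1-3, 2-1 and 2-5. The tumor-bearing mice lay inside the PBS range. The log2 fold change was -0.04 (SE 0.10, edgeR FDR = 0.838), and its sign turned with gene length offsets (0.0081) and without LLC1 1-2 (0.0038) or PBS 2-5 (0.011). PBS 1-1 was the lowest and PBS 2-5 the highest PBS-injected mouse for Timp2, Mmp2 and Mmp14 alike. Timp3 (ENSMUSG00000020044, chromosome 10, 86300372 to 86349506), the TIMP that stays bound to matrix and also inhibits Adam17, rested on 2079 counts or more in every mouse, with 248, 252, 202 and 264 CPM in LLC1 1-2, 1-3, 1-5 and 2-2 and 178, 203, 197 and 265 CPM in PBS 1-1, 1-3, 2-1 and 2-5. Its groups overlapped through LLC1 1-5 and PBS 2-5, and the log2 fold change was 0.19 (SE 0.12, edgeR FDR = 0.332). Without PBS 2-5 it was 0.32 (FDR = 0.0509 from edgeR).

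Timp1, Timp3 and Timp4 each lie inside a synapsin gene on the opposite strand, Timp1 in Syn1, Timp3 in Syn3 and Timp4 in Syn2. Synapsins are proteins of synaptic vesicles. Syn3 had a log2 fold change of 0.17 (FDR = 0.293), Syn2 of 0.09 (FDR = 0.806) and Syn1 of -0.30 (FDR = 0.575), and none passed the edgeR test. In GENCODE M21, 21.3% of the exon bases of Timp3 overlap Syn3 exons, 1.53% of those of Timp4 overlap Syn2 exons, and those of Timp1 overlap no Syn1 exon. Since the strand setting of the counting is not given, Timp3 and Syn3 reads in the overlap cannot be told apart, and the Timp3 values are uncertain to that extent.

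To compare genes with each other, CPM was divided by the gene length in kilobases that the authors list (RPKM). In PBS-injected mice the level order was Timp4 (34.4 ± 13.1 RPKM, SD, n = 4), Mmp2 (26.0 ± 3.64), Timp3 (25.9 ± 4.63), Mmp15 (24.5 ± 1.08) and Timp2 (23.7 ± 3.28), and each neighbour in this upper set overlapped the next over the 4 mice. Mmp14 followed at 6.53 ± 1.22 RPKM, below every Timp2 value. Mmp23 (2.94 ± 0.222), Timp1 (2.37 ± 0.873) and Mmp3 (2.32 ± 0.764) again overlapped as neighbours, and Mmp9 was last at 0.216 ± 0.108 RPKM. In tumor-bearing mice Timp4 (52.2 ± 3.77 RPKM, SD, n = 4) lay above every Timp3 value (29.6 ± 3.33), and Mmp15 (21.7 ± 1.98) was higher than Mmp2 (17.1 ± 1.87) in 4 of 4 mice. These orders depend on the length used, because the authors list 1416 bases for Timp4, 2597 for Mmp14, 4348 for Mmp15 and 3038 for Mmp2, where GENCODE M21 holds 5894, 5960, 5397 and 3371 exon bases. With GENCODE M21 lengths Timp4 lay below Timp3, Timp2, Mmp2 and Mmp15 in both groups (8.26 ± 3.15 RPKM in PBS-injected and 12.5 ± 0.905 RPKM in tumor-bearing mice, SD, n = 4). Mmp14 was then at 2.85 ± 0.534 and 1.95 ± 0.0583 RPKM, overlapping Mmp23 in PBS-injected mice and below it in tumor-bearing mice, and Mmp15 was higher than Mmp2 in 3 of 4 tumor-bearing mice.

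**Figure D3:**
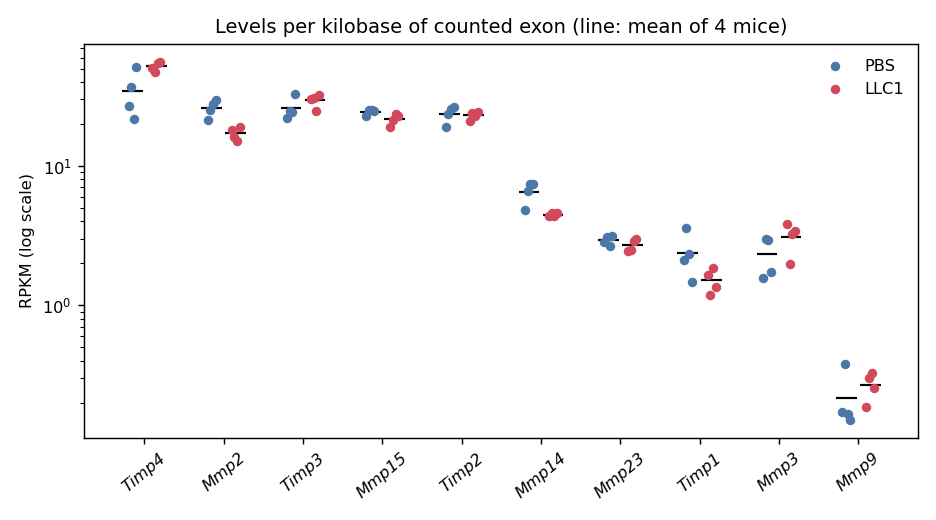
RPKM of each mouse, by the lengths the authors list, on a log axis for the 10 genes, ordered by the PBS mean, with a line at the mean of 4 mice. Timp4, Mmp2, Timp3, Mmp15 and Timp2 have group means of 17.1 to 52.2 RPKM, Mmp14 lies below them, and Mmp9 is lowest at under 1 RPKM.

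Summed per mouse, the 6 metalloproteinases came to 48.0, 46.9, 49.5 and 53.1 RPKM in LLC1 1-2, 1-3, 1-5 and 2-2 and to 53.7, 63.5, 65.8 and 67.1 RPKM in PBS 1-1, 1-3, 2-1 and 2-5. The 4 TIMPs came to 104, 104, 104 and 114 RPKM in the tumor-bearing mice and to 70.2, 89.2, 74.0 and 112 RPKM in the PBS-injected mice. The enzyme sums did not overlap, but LLC1 2-2 (53.1 RPKM) and PBS 1-1 (53.7 RPKM) nearly met. By total counts alone, without the TMM factors, PBS 1-1 lay below LLC1 2-2 and the enzyme sums overlapped. PBS 2-5 lay within the TIMP sums of the tumor-bearing mice. The TIMP sum over the MMP sum was 2.16 ± 0.0454 (SD, n = 4) in tumor-bearing mice, from 2.10 to 2.21, and 1.38 ± 0.227 (SD, n = 4) in PBS-injected mice, from 1.12 to 1.67. With GENCODE M21 lengths, an alternative added after the data were seen, this ratio was 1.63 ± 0.0928 and 1.17 ± 0.111, and the groups still did not overlap. These sums describe transcript supply over members chosen for their family, and no test was made of them.

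**Figure D4:**
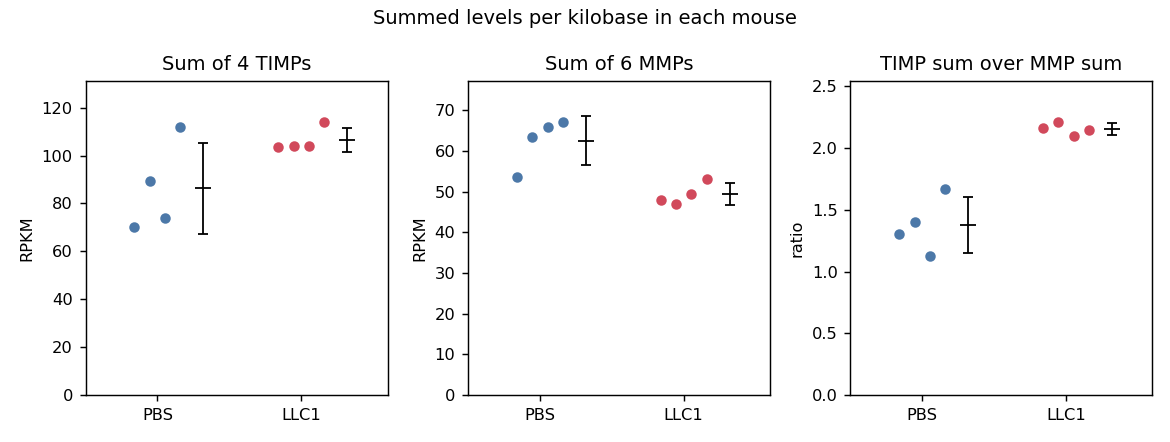
Summed RPKM of the 4 TIMPs, summed RPKM of the 6 MMPs and the ratio of these sums, 1 point per mouse, with mean and SD of 4 mice on linear axes from 0. The ratio lies between 2.10 and 2.21 in LLC1 mice and between 1.12 and 1.67 in PBS mice.

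The makeup of the sums is likewise a description. Mmp2 made up 34.7 ± 3.18% of the MMP sum (SD, n = 4) in tumor-bearing mice and 41.5 ± 2.27% in PBS-injected mice, and Mmp15 made up 44.0 ± 3.49% and 39.3 ± 2.50%. Timp4 made up 49.0 ± 2.73% of the TIMP sum in tumor-bearing mice and 38.9 ± 6.97% in PBS-injected mice, and Timp2 21.7 ± 1.21% and 28.0 ± 4.71%. With GENCODE M21 lengths the Timp4 share was 18.8 ± 1.68% and 13.5 ± 3.30%, and Timp3 became the largest of the TIMPs at 44.3 ± 3.14% and 43.0 ± 1.83%. The mean share of Timp4 was thus higher in tumor-bearing mice under either length, but Timp4 was the most abundant TIMP only under the lengths the authors list.

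The remaining metalloproteinases mostly rested on few counts or on none. Of 17 other family members, 6 were tested and none was called (8.73% of all genes tested were), with 2 at an unadjusted p under 0.05, Mmp13 and Mmp19, where 25.5% of all genes tested had such a p. Mmp13, a collagenase, had 0.395 to 0.656 CPM in tumor-bearing mice and 0.515 to 1.88 CPM in PBS-injected mice, with a log2 fold change of -1.11 (FDR = 0.0831 from edgeR). It passed in edgeR without PBS 1-1 (FDR = 0.0175). Mmp19 had 5.40 to 6.22 CPM and 6.65 to 8.34 CPM, without overlap, with a log2 fold change of -0.34 (FDR = 0.0962 from edgeR). Mmp11, Mmp17, Mmp24 and Mmp28 had log2 fold changes from -0.11 to 0.21 with FDR of 0.552 or more. Without the filter on low counts, 2 of the 17 passed, Mmp12 (FDR = 0.0384) and Mmp27 (FDR = 0.0251), both from edgeR. In that fit 1515 of 27383 genes passed, and the 4 of the 17 without any count did not enter it. Mmp12, the macrophage elastase, had 2 to 6 counts in tumor-bearing mice and 6 to 17 counts in PBS-injected mice, Mmp16 had 7 to 9 and 5 to 15 counts, and both were below the filter. Mmp1a, Mmp1b, Mmp7 and Mmp20 had no count in any mouse.

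Genes that activate metalloproteinase precursors moved in both directions. Of 9 listed, 6 were tested, and 3 fell and 1 rose, beside 4.61% of all genes tested that fell and 4.12% that rose. Plau, the urokinase-type plasminogen activator, had 2.83 to 4.93 CPM in tumor-bearing mice and 5.32 to 7.57 CPM in PBS-injected mice (log2 fold change -0.83, FDR = 0.0176 from edgeR). Its receptor Plaur (-0.88, FDR = 0.0416) and the tissue-type activator Plat (-0.42, FDR = 0.0139) also fell. Furin, the convertase that cuts the propeptide of Mmp14 and Mmp15, rose, with 115 to 139 CPM in tumor-bearing mice and 91.6 to 109.6 CPM in PBS-injected mice (log2 fold change 0.39, FDR = 0.0120 from edgeR). The count of 4 dropped to 2 without LLC1 1-2, to 1 without LLC1 1-3 and to 0 without PBS 1-3. Plaur was the least stable, as it passed without only 2 of the 8 mice and missed the threshold in limma-voom (adjusted p = 0.057). Furin failed the test when scaled by total counts alone (log2 fold change 0.33).

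Of 10 other inhibitors and clearance or binding partners, 9 were tested, and 2 fell and 2 rose, where 4.61% of all genes tested fell and 4.12% rose. Thbs1, thrombospondin 1, fell by 1.74 on the log2 scale (FDR = 0.0127 from edgeR), with 8.60 to 12.5 CPM in tumor-bearing mice and 16.5 to 56.2 CPM in PBS-injected mice. Thbs2, a relative that clears Mmp2 from the cell surface together with Lrp1, rose by 0.69 (FDR = 0.0323), and Lcn2, which binds and stabilizes Mmp9, rose by 0.99 (FDR = 0.0118). Cav1, the caveolin of the membrane pits in which Mmp14 is held, fell by 0.37 (FDR = 0.0198). Reck, a membrane-anchored inhibitor of Mmp2, Mmp9 and Mmp14, had 6.29 to 8.36 CPM in tumor-bearing mice and 7.46 to 10.1 CPM in PBS-injected mice (log2 fold change -0.20, FDR = 0.360), and Lrp1 had a log2 fold change of 0.07 (FDR = 0.804). The count of 4 dropped to 2 without LLC1 1-2, LLC1 1-3, LLC1 2-2 or PBS 1-3, in each case through Thbs2 and Cav1, which passed without 4 of the 8 mice each. Thbs2 also failed with robust fitting and by total counts (FDR of at most 0.0746), and Thbs1 failed with robust fitting (FDR = 0.0748), all in edgeR.

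The related ADAM and ADAMTS proteases, several of which Timp3 inhibits, include sheddases of membrane proteins and enzymes that cut proteoglycans. All 19 listed were tested, and 5 fell and none rose, beside 4.61% of all genes tested that fell. They were Adamts12 (log2 fold change -1.22, FDR = 0.00139), Adam10 (-0.44, FDR = 0.00395), Adam12 (-1.85, FDR = 0.00991), Adamts9 (-0.77, FDR = 0.0143) and Adamts4 (-0.99, FDR = 0.0474) in edgeR. Adam10, a sheddase of Notch receptors among others, had 38.6 to 42.5 CPM in tumor-bearing mice and 51.8 to 59.8 CPM in PBS-injected mice. Adamts4 is the exception in stability, as it passed without only 2 of the 8 mice and failed in limma-voom (adjusted p = 0.0958) and with gene length offsets. The median log2 fold change of the 19 was -0.33.

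Transcripts of matrix proteins that these enzymes cut were followed for comparison. Of 14 substrates tested, 10 fell and none rose, with a median log2 fold change of -0.63. Of all genes tested, 4.61% fell. Like the other lists, this one was written with earlier results of these data known, so these shares are no test of the list. Vcan, a large proteoglycan cut by ADAMTS proteases, had 10.7 to 15.7 CPM in tumor-bearing mice and 24.0 to 31.3 CPM in PBS-injected mice (log2 fold change -1.07, FDR = 0.00103 from edgeR). Postn, the matricellular protein of activated fibroblasts, fell by 1.35 on the log2 scale (FDR = 0.00113), Col3a1 by 0.98 (FDR = 0.00683), Col4a1, the basement membrane collagen that Mmp2 cuts, by 0.68 (FDR = 0.0123), Bgn by 0.64 (FDR = 0.0123) and Col5a1 by 0.64 (FDR = 0.00317). Dcn, a small proteoglycan on collagen fibrils, had 400 to 496 CPM and 388 to 437 CPM (log2 fold change 0.07, FDR = 0.612). The count of 10 dropped to 6 without LLC1 1-2, LLC1 1-3, LLC1 1-5 or PBS 1-3, and the 6 genes named here as lower passed without each of the 8 mice. Col1a1 stands also among the fibroblast markers.

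**Figure D5:**
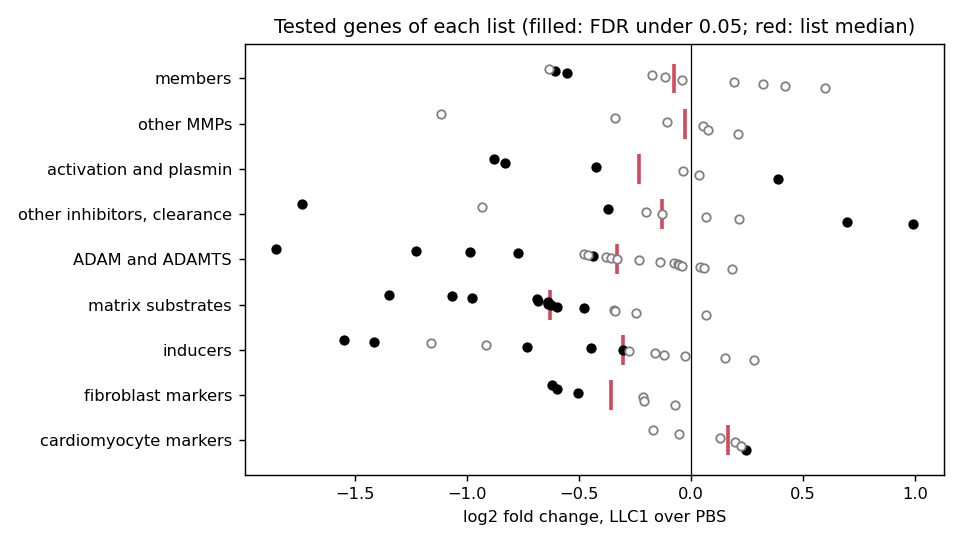
Log2 fold changes of LLC1 over PBS, 1 point per tested gene in each list, filled where the FDR was under 0.05, with a red bar at the list median. The medians are -0.08 for the members, -0.03 for other MMPs, -0.33 for ADAM and ADAMTS, -0.63 for matrix substrates, -0.30 for inducers and -0.36 for fibroblast markers.

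Regulators known to induce metalloproteinase or TIMP transcription were read from the same libraries. Of 15 listed, 13 were tested, and 5 fell (4.61% of all genes tested did) and none rose, with a median log2 fold change of -0.30. Ets1, a transcription factor that binds ETS cores, had 58.5 to 64.1 CPM in tumor-bearing mice and 101 to 102 CPM in PBS-injected mice (log2 fold change -0.73, FDR = 0.000142 from edgeR). Egr1, the immediate early factor of the EGR1 motif, had 31.1, 37.7, 40.1 and 24.3 CPM in LLC1 1-2, 1-3, 1-5 and 2-2 and 119, 59.9, 62.6 and 147 CPM in PBS 1-1, 1-3, 2-1 and 2-5. The groups did not overlap for either factor. Il1b (-1.42, FDR = 0.0254), Tgfb1 (-0.44, FDR = 0.0384) and Ets2 (-0.30, FDR = 0.0400) also fell in edgeR. The AP-1 subunits Jun (-0.03, FDR = 0.939), Junb (-0.12, FDR = 0.760), Jund (-0.16, FDR = 0.800) and Fos (-0.92, FDR = 0.0778) did not pass. Neither did the subunits Fosb (-1.16, FDR = 0.153), Fosl1 (-0.28, FDR = 0.293) and Fosl2 (0.15, FDR = 0.539), all from edgeR. The count of 5 dropped to 3 without LLC1 1-2, LLC1 1-3, LLC1 2-2 or PBS 1-3 and to 2 without LLC1 1-5, and without the filter on low counts it was 8, with Fos and Tnf lower and Stat3 higher in addition. Ets1 and Egr1 passed without each of the 8 mice. Il1b passed without only 4 of them (edgeR FDR up to 0.0825), Tgfb1 without 3 (edgeR FDR up to 0.111) and Ets2 without 3. Ets2 also failed with gene length offsets (log2 fold change -0.25, FDR = 0.0768 from edgeR).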

How the data were processed

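Total RNA of 8 ventricles (miRNeasy) was made into TruSeq V2 libraries and sequenced as paired ends. The submitters' processing notes name CASAVA, STAR, featureCounts and mm10. Versions, annotation and strand setting are not given in the sources used here. The authors deposited whole-number counts per gene and mouse that were not normalized. The groups were compared with edgeR 4.0.16 under R 4.3.3 (filterByExpr, TMM, quasi-likelihood F-test, Benjamini-Hochberg adjustment over 16111 genes, call at FDR under 0.05). Standard errors are the absolute log2 fold change divided by the square root of F. RPKM uses the deposited gene lengths. Levels are means ± SD of TMM-scaled CPM. Single genes were also compared by an exact two-sided permutation test. The steps were tested on simulated data. Alternatives were DESeq2 1.42.0, limma-voom (limma 3.58.1), robust fitting, other scalings, other filters, a code covariate, length offsets (loess span 0.3) and each mouse left out. Similar transcripts were searched with BLAST 2.17.0 (at least 97% identity over 150 bases), which found only Timp3 with Syn3. Library totals of 12480706 to 19747596 limit precision for genes under 1 CPM. Members and lists were chosen with earlier results of these data known. Named were all members, up to 6 called genes of each list by FDR, other metalloproteinases with at least 10 counts in a mouse, the synapsins and the 3 genes most like each called member. Uncalled list genes, markers and genes under 10 counts were added after their values were seen.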

Additional observations from a re-analysis of the deposited data

Results flagged for a closer look

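Among the 90 gene and group pairs examined, 3 had 1 mouse far from the other mice of its group by Dixon's criterion for 4 values, applied to the gap to the nearest mouse over the range of the group. Chance flags about 1 in 20 groups. Mmp9 was at 1.332 CPM in PBS 1-3, where the nearest PBS-injected mouse had 0.6006 CPM (gap over range 0.913). Cav1 was at 256.2 CPM in LLC1 1-5, where the nearest tumor-bearing mouse had 236.9 CPM (gap over range 0.845). Postn was at 19.23 CPM in LLC1 1-3, where the nearest had 27.37 CPM (gap over range 0.847).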

How the results depend on the processing

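Mmp2 passed an FDR of 0.05 under all 10 alternatives with all mice and without each of the 8 mice, and Mmp14 under all 10 alternatives and without 3 of the 8 mice. Timp4 passed without the filter on low counts (log2 fold change 0.61, FDR = 0.0182 from edgeR) and without PBS 2-5, and the other 7 members passed under none of these. Leaving out each mouse gave 542 (without PBS 1-3) to 1949 (without PBS 1-1) genes under the limit, 1 to 3 of the 10 members and 15 (without PBS 1-3) to 34 (without PBS 1-1) list genes, of 28 with all mice. The direction of Timp2 turned when the leading digit of each code entered the fit (0.018) and with length offsets (0.0081), and its log2 fold change ran from -0.13 to 0.011 without each mouse. That of Mmp17 turned by total counts (-0.0061) and ran from -0.17 to 0.32 without each mouse, and that of Syn2 from -0.028 to 0.30. The cause was not tested. With GENCODE M21 lengths, added after the data were seen, the TIMP sum was 66.8 RPKM in LLC1 and 60.2 RPKM in PBS mice, the MMP sum 40.9 and 51.5 RPKM, their ratio in LLC1 mice 1.63, the Timp4 share 18.8% and 13.5% and the Mmp2 share in PBS mice 45.4%. Scaling by total counts called 225 genes higher in place of 663. The other alternatives with all mice kept the total of called genes and the counts of each list within 1.5 times the reported ones, except 8 inducers and 2 other metalloproteinases without the filter. No paired analysis was possible because the groups share only 1 replicate code (1-3), carried by different mice. Among the members, Mmp9 and Timp1 rested on the fewest counts, 7 to 45 per mouse.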

Other observations

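Genes below the filter, picked after their counts were seen, include Mmp8, the neutrophil collagenase, with 2, 2, 3 and 2 counts in LLC1 1-2, 1-3, 1-5 and 2-2 and 1, 0, 0 and 0 counts in PBS 1-1, 1-3, 2-1 and 2-5. Mmp27 had 4, 6, 7 and 5 counts in the tumor-bearing mice and 1, 1, 0 and 0 counts in the PBS-injected mice. Tnf, a cytokine that induces metalloproteinases, had 1, 4, 1 and 2 counts in the tumor-bearing mice and 6, 10, 8 and 8 counts in the PBS-injected mice. These counts are not scaled to library size. In the edgeR fit without that filter, the FDR was 0.203 for Mmp8, 0.0251 for Mmp27 and 0.0218 for Tnf.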
